A study of Mus musculus with 30 samples.

Results

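The genes of sterol and fatty acid synthesis were examined in dendritic cells, which present antigen to T cells. The cells were cultured from mouse bone marrow with or without targeted deletion of the gene for the transcription factor IRF-4. The set was chosen by function and holds 32 genes: 17 of the sterol branch, 9 of the fatty acid branch, and 6 that regulate both branches or carry sterol. A gene was represented by its brightest probe in the sample channel among those named through the transcript accession. Of the 32 genes 31 had a named probe and passed the filter on dim probes (16 sterol, 9 fatty acid and 6 regulators and carrier), out of 16358 named genes of which 11262 passed. Idi1, the isopentenyl diphosphate isomerase, had no named probe.

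Both branches build lipid from acetyl-CoA. The sterol branch runs through mevalonate, isoprenoids and squalene to cholesterol, and the fatty acid branch carboxylates, condenses, elongates and desaturates acyl chains. Both are switched on by the SREBP transcription factors, of which SREBP2 (gene Srebf2) acts mainly on sterol genes and SREBP1 (gene Srebf1) mainly on fatty acid genes. SREBPs are escorted out of the endoplasmic reticulum by SCAP and held there by INSIG1 and INSIG2 when sterol is plentiful, and lipopolysaccharide (LPS), a bacterial cell wall product, is known to remodel lipid synthesis in myeloid cells.

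The cells came from C57BL/6 mice. Control cells carried the CD11c-Cre transgene alone, and KO cells carried the same transgene with a floxed IRF-4 allele on both chromosomes, so that Cre, which the CD11c promoter drives, was present in both genotypes. Each genotype was left unstimulated or exposed to LPS for 6 or 24 h, and CD11c+ cells were then taken on magnetic beads. This gave 6 groups of 5 arrays, on which the Cy5-labelled sample was set against a Cy3-labelled universal mouse reference RNA. The labels call the 5 arrays of a group biological replicates without saying whether these are mice or cultures, so a p-value reflects only how far these samples spread, which may be technical. No source used here gives the age of the mice. A level below is the log2 ratio of sample over reference, a difference is one between group means of that ratio, and genes with an adjusted p under 0.05 are termed called (limma, Benjamini-Hochberg over the 11262 genes). Values are from RNA of whole cell preparations, in which fewer cells expressing a gene and less RNA per cell cannot be told apart.

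The deleted gene itself, Irf4, was reduced in the KO arrays 7.48-fold unstimulated, 5.34-fold at 6 h and 4.50-fold at 24 h of LPS, with no overlap of the 5 arrays against 5 (exact two-sided permutation test, p = 0.00794 each, the smallest p that 5 against 5 allows). The Irf4 signal was still well above background on 4 of 5 unstimulated KO arrays and on all 5 at 6 h and at 24 h. Between 45.5% and 66.7% of probes were well above background in Cy5 on an array. Of 10 dendritic cell markers 9 passed the filter, and their summed Cy5 signal was 72663 to 165322 in unstimulated control arrays and 18658 to 49016 in unstimulated KO arrays. There were 9 slides, and no slide held both genotypes at 1 treatment. A slide scanned on a later day carried the third control replicate at 6 h and the second at 24 h, and both stood apart from their groups in many of these genes. The level of Fasn, the fatty acid synthase, was 0.03 on the first of them and -3.28 to -3.14 on the other 4 arrays of its group. Results that rest on these 2 arrays are given with and without them.

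Promoters of members from both branches are shown here, since the same DNA-binding factors are known to act on both. Cyp51 is the lanosterol demethylase and had the largest KO difference of the sterol branch. Hmgcs1, which makes HMG-CoA, is shown because its promoter held the sterol element. Fads2, a fatty acid desaturase, was the fatty acid gene called lower in unstimulated KO cells, and Elovl5, an elongase, the one called lower in KO cells at 24 h. Each sequence runs 5′ to 3′ on the gene's own strand, from 250 bases before to 50 bases after the RefSeq start, and is taken from RefSeq (GRCm38.p6): chr5:4104648-4104947 on the minus strand for Cyp51, chr13:119690101-119690400 on the plus strand for Hmgcs1, chr19:10101454-10101753 on the minus strand for Fads2 and chr9:77917115-77917414 on the plus strand for Elovl5. Capitals mark a match on either strand to TCACNCCAC (a sterol element), CACGTG (an E-box), CCAAT (the NF-Y box) or GGGCGG (the Sp1 box), none of which contains another.
Cyp51: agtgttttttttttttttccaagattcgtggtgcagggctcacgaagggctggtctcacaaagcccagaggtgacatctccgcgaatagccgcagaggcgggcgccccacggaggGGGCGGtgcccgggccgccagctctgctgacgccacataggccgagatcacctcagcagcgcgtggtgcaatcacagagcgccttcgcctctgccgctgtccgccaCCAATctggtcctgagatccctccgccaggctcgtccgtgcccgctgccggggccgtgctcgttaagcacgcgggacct
Hmgcs1: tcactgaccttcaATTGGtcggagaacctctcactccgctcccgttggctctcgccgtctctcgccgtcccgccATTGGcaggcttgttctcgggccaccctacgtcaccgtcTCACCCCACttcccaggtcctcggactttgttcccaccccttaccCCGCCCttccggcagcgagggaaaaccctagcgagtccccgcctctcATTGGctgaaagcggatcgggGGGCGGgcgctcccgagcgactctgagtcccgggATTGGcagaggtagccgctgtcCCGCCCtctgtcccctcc
Fads2: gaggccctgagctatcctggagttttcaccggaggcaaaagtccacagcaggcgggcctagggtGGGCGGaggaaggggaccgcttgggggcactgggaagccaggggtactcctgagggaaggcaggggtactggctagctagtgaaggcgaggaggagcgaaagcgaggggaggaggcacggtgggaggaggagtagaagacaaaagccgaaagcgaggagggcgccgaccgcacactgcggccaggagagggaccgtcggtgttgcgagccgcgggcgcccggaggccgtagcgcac
Elovl5: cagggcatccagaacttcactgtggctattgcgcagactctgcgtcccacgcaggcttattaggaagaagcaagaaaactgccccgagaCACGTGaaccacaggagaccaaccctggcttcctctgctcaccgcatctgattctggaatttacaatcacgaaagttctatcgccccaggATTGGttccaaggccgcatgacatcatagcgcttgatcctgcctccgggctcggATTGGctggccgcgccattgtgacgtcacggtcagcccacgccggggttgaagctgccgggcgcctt

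The RefSeq table held promoters for 25 of the 32 members, 33 in all, and none for Fdps, Fdft1, Sqle, Scd1, Scd2, Fads1 or Stard4. CCAAT was found in 13 of 17 sterol promoters (76.5%) and 3 of 6 fatty acid promoters (50%), against 37.7% of the 11554 promoters of genes tested. GGGCGG was found in 13 of 17 sterol promoters (76.5%) and 2 of 6 fatty acid promoters (33.3%), against 59.2%. The sterol element was found in 1 of 17 sterol promoters, that of Hmgcs1 at position -137 from the start, and in 0 of 6 fatty acid promoters, against 1.19% of promoters of genes tested. CACGTG lay in 2 of 17 sterol and 1 of 6 fatty acid promoters, against 9.62%. Of the 10 promoters of regulators 5 held CCAAT, 8 GGGCGG, 3 CACGTG and 0 the sterol element. The matches describe the letters in these windows and do not show binding.

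**Figure D1:**
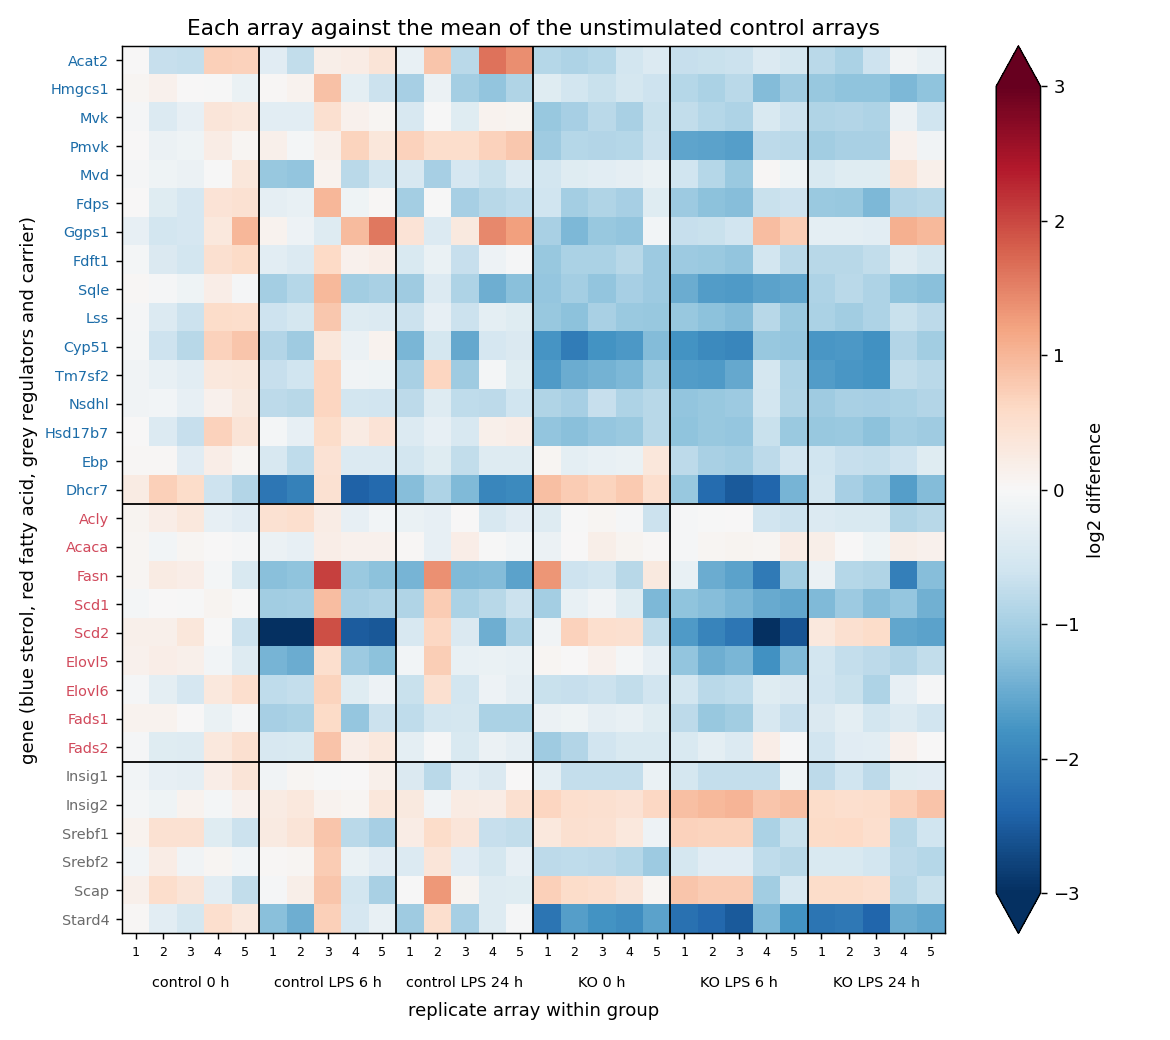
Log2 ratio of each array minus the mean of the 5 unstimulated control arrays, for the 31 genes measured (rows, by branch) and 30 arrays (columns, by group and replicate); the colour scale runs from -3 to 3 and values beyond it take its end colours. The rows of the sterol genes are blue in the 15 KO arrays except all 5 unstimulated arrays of Dhcr7, 2 unstimulated arrays of Ebp, and 1, 3 and 4 LPS arrays of Pmvk, Mvd and Ggps1, while control LPS 6 h replicate 3 is red in most rows.

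In unstimulated cells more sterol than fatty acid genes were called. Of 16 sterol genes 10 were called lower in KO than in control cells and 0 higher, against 7.13% lower and 6.95% higher of all genes tested. The median sterol difference was -0.89, against -0.04 over all genes, and 11 of the 16 had all 5 KO arrays below all 5 control arrays (9.47% of all genes). The fatty acid branch had 1 of 9 called lower and 0 higher, with a median of -0.21, and 3 of the 9 had all KO arrays below all control arrays. Of the 6 regulators and carrier 3 were called lower and 1 higher.

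The 10 sterol genes spanned the pathway. In the mevalonate and isoprenoid steps, the mevalonate kinase Mvk (-0.92), the phosphomevalonate kinase Pmvk (-0.87) and the farnesyl diphosphate synthase Fdps (-0.77) were called lower. The squalene steps followed, with the squalene synthase Fdft1 (-0.99), the squalene epoxidase Sqle (-1.08) and the lanosterol synthase Lss (-1.12). Among the genes that turn lanosterol into cholesterol, the sterol reductase Tm7sf2 (-1.40), the ketoreductase Hsd17b7 (-1.11) and the dehydrogenase Nsdhl (-0.87) were called lower beside Cyp51. The other 6 were not called: the thiolase Acat2 (-0.72), Hmgcs1 (-0.54), the mevalonate diphosphate decarboxylase Mvd (-0.34), the geranylgeranyl diphosphate synthase Ggps1 (-0.94), the sterol isomerase Ebp (-0.06) and Dhcr7 (0.73), the reductase of the last step and the 1 sterol gene with a positive difference.

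Cyp51 had the largest difference of the branch. Its level was -0.19, -0.74, -0.96, 0.56 and 0.71 in unstimulated control arrays 1 to 5. In unstimulated KO arrays 1 to 5 it was -1.88, -2.21, -1.91, -1.84 and -1.44. The groups did not overlap, and the control arrays spread more (SD 0.75 against 0.28, n = 5 each). The difference was -1.73 (SE 0.32), a 3.32-fold lower ratio, with an adjusted p of 0.000413 in limma, and the other 2 probes of Cyp51 gave -1.41 and -1.11.

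Stard4, which carries cholesterol between membranes, had the largest difference of all members. Its level was 0.20, -0.14, -0.36, 0.66 and 0.48 in unstimulated control arrays and -2.01, -1.49, -1.63, -1.70 and -1.45 in unstimulated KO arrays. The groups did not overlap, and the KO level was 3.54-fold lower (-1.82, SE 0.34, limma adjusted p = 0.000414). Insig2 moved the other way, from -1.31, -1.38, -1.15, -1.33 and -1.12 in control arrays to -0.60, -0.74, -0.78, -0.82 and -0.63 in KO arrays. Its groups did not overlap either, at 0.54 (SE 0.10, limma adjusted p = 0.000351). Srebf2 (-0.86) and Insig1 (-0.53) were called lower, while Srebf1 (0.28) and Scap (0.44) were not called. The dimmer probes of Srebf2 and Insig1 gave -0.33 and -0.52.

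In the fatty acid branch Fads2 was the called gene. Its level was -1.01, -1.34, -1.37, -0.65 and -0.48 in unstimulated control arrays and -2.05, -1.84, -1.54, -1.43 and -1.43 in unstimulated KO arrays. The lowest control array and the highest KO arrays nearly met. The difference was -0.69 (SE 0.22, limma adjusted p = 0.0309). The ATP citrate lyase Acly (-0.21), the acetyl-CoA carboxylase Acaca (0.03), Fasn (-0.08), the stearoyl-CoA desaturases Scd1 (-0.61) and Scd2 (0.16), the elongases Elovl5 (-0.02) and Elovl6 (-0.66) and the desaturase Fads1 (-0.23) were not called. Acaca was dim: it was well above background on 4 of 5 unstimulated KO arrays, 3 of 5 control arrays at 6 h and 2 of 5 at 24 h.

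**Figure D2:**
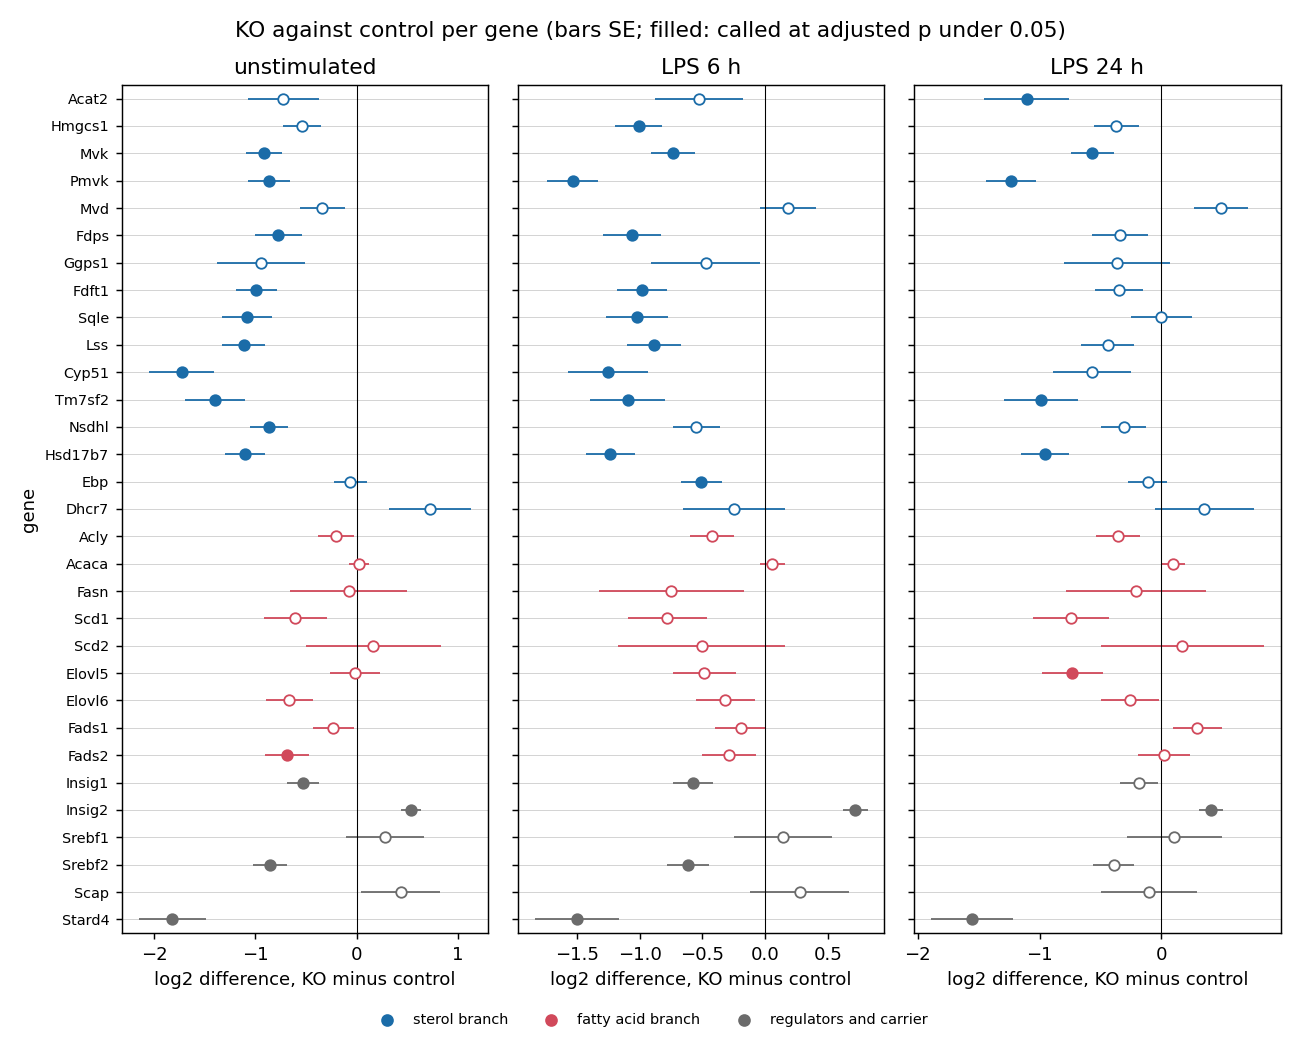
KO minus control log2 difference of each gene (points, with bars of 1 SE) unstimulated and at 6 and 24 h of LPS; filled points were called in limma and the x axes differ between panels. The filled points are mostly sterol genes (10, 11 and 5 called lower) and the fatty acid genes are mostly open (1, 0 and 1).

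Fdps, Fads2 and Insig1 lost the call when single arrays were left out. This held for Fdps and Insig1 without KO replicate 2, 3 or 4 or control replicate 4 or 5 (adjusted p up to 0.0800 and 0.0838), and for Fads2 without KO replicate 1 or 2 or control replicate 1, 4 or 5 (up to 0.105). Control replicates 1 to 3 lay on 1 slide and 4 and 5 on another. Their sterol medians, each gene taken from the unstimulated control mean, were -0.02, -0.29 and -0.33 on the first and 0.32 and 0.33 on the second. Arrays within 1 slide also differed by replicate number. KO replicates 2 to 5 at 6 h, on 1 slide, had -1.14, -1.17, -0.67 and -0.85. KO replicates 1 to 4 at 24 h, on 1 slide, had -0.94, -0.97, -0.95 and -0.71. Unstimulated KO replicates 3 to 5, on 1 slide, had -0.90, -0.95 and -0.66. In the unstimulated control arrays slide and replicate number cannot be told apart. With the slide as a block, which sums the difference over a chain of slides, 13 of the 15 members kept the call, and Insig2 (0.34, adjusted p = 0.187) and Srebf2 (-0.52, adjusted p = 0.148) lost it. Median centring ended the calls of Fdps (-0.97), Sqle (-1.28), Nsdhl (-0.91), Fads2 (-0.72) and Srebf2 (-0.90), whose differences were no smaller but had larger SEs (0.41 against 0.25 for Sqle). The arrays of the later slide enter this comparison through the pooled spread alone. Without that slide 11 sterol and 3 fatty acid genes (Scd1, Elovl6 and Fads2) were called lower, against 10% of all genes. Hmgcs1 (-0.54) was the sterol gene added. Cell type markers moved with the genotype: 6 of 9 dendritic cell markers were called lower in unstimulated KO cells, and 2 of 8 macrophage markers higher, with a summed Cy5 signal of 70415 to 128637 in KO and 36936 to 91841 in control arrays. The part of cell type makeup in the sterol difference was not tested.

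Among 33 other genes of sterol and fatty acid metabolism 30 were measured, and in unstimulated KO cells 6 were called lower and 5 higher, against 7.13% and 6.95% of all genes, with a median of 0.19. Those called lower included the sterol desaturase Sc5d (-1.38) and the methyl sterol oxidase Msmo1 (-1.18), both of cholesterol synthesis. The largest rises were Ch25h (4.27), which makes an oxysterol, and the cholesterol efflux pumps Abca1 (2.25) and Abcg1 (1.90). At 6 h 5 of the 30 were called lower and 5 higher, against 5.88% and 6.23% of all genes. At 24 h 2 were called lower, which is no more than the 8.44% of all genes gives, and 6 higher, against 6.97%.

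At 6 h of LPS the sterol difference was again seen. In KO cells 11 of 16 sterol genes were called lower and 0 higher, against 5.88% lower and 6.23% higher of all genes, with a median of -0.94. Pmvk was lowest at -1.54 (SE 0.21, adjusted p = 1.19e-05), ahead of Cyp51 (-1.25) and Hsd17b7 (-1.24). Hmgcs1 (-1.01) and Ebp (-0.51), which were not called in unstimulated cells with all arrays, were called here, and Nsdhl (-0.55) was not. No fatty acid gene was called (2 of 9 at an unadjusted p under 0.05, both lower), and the branch median was -0.42. Insig2 was higher (0.72, SE 0.10, adjusted p = 1.53e-05), and Stard4 (-1.50), Srebf2 (-0.62) and Insig1 (-0.58) were lower.

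Leaving out the later slide, 10 sterol genes were lower at 6 h (7.58% of all genes), Ebp being the one lost, the sterol median was -0.66 and the fatty acid median -0.09. With only the 10 arrays compared in the fit 9 of the 15 calls were kept (Sqle, Lss, Tm7sf2, Ebp, Srebf2 and Stard4 were lost). With the slide as a block KO replicate 1 alone gave the KO estimate, as the other KO arrays had a slide to themselves. That block ended the calls of Hmgcs1 (-0.33), Sqle (-0.73), Ebp (-0.96), Insig1 (-0.90), Insig2 (0.49) and Srebf2 (-0.18). Median centring ended those of Sqle (-1.31), Lss (-0.97), Ebp (-0.82) and Srebf2 (-0.76), with differences no smaller and larger SEs. Tm7sf2 lost the call without KO replicate 2 or control replicate 3 (adjusted p up to 0.0519), and Ebp without KO replicate 1, 2 or 3 or control replicate 3 or 4 (up to 0.126). Dendritic cell markers were called lower in 5 of 9, with a summed Cy5 signal of 58909 to 223424 in control and 25642 to 35344 in KO arrays, and neutrophil markers in 3 of 6. Their part in the result was not tested.

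At 24 h of LPS fewer members differed between the genotypes. Of 16 sterol genes 5 were called lower in KO cells and 0 higher, against 8.44% lower and 6.97% higher of all genes, with a median of -0.37. They were Pmvk (-1.24), Acat2 (-1.10), Tm7sf2 (-0.99), Hsd17b7 (-0.95) and Mvk (-0.57), while Cyp51 (-0.57) and Sqle (0.00) were not called. In the fatty acid branch Elovl5 was called lower, with a branch median of -0.21 (0.04 without the later slide, against -0.36 for sterol genes). Stard4 was lower (-1.55) and Insig2 higher (0.40).

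The Pmvk level at 24 h was 0.80, 0.63, 0.65, 0.81 and 0.92 in control arrays and -0.93, -0.86, -0.85, 0.25 and 0.02 in KO arrays. The groups did not overlap, and KO replicates 4 and 5 lay nearer the control arrays than replicates 1 to 3 did. The difference was -1.24 (SE 0.21, limma adjusted p = 0.000126). Elovl5 was at 0.40, 1.22, 0.27, 0.29 and 0.26 in control arrays and -0.05, -0.22, -0.29, -0.39 and -0.25 in KO arrays. These groups did not overlap, and the control array of the later slide was the highest. The difference was -0.73 (SE 0.25, limma adjusted p = 0.0468) and -0.55 without the later slide.

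Stard4 at 24 h was at -0.89, 0.67, -0.83, -0.22 and 0.14 in control arrays and -2.02, -1.99, -2.21, -1.31 and -1.39 in KO arrays. All KO arrays were below all control arrays (-1.55, SE 0.34, limma adjusted p = 0.00198). Insig2 was at -0.95, -1.37, -1.02, -1.02 and -0.78 in control arrays and -0.70, -0.76, -0.74, -0.53 and -0.40 in KO arrays. Its KO arrays were all the higher (0.40, SE 0.10, limma adjusted p = 0.00502).

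Several of these calls at 24 h were lost under other settings. Leaving out the later slide, 6 of the 8 members kept the call (8.36% of all genes lower and 6.32% higher), and Acat2 and Tm7sf2 lost it. With median centring in place of loess 4 members were called lower and 0 higher, against 7 and 1. With the slide as a block KO replicate 5 alone gave the KO estimate at 24 h, as KO replicates 1 to 4 had a slide to themselves. Under this block Acat2, Mvk, Tm7sf2, Hsd17b7 and Stard4 took the opposite sign (1.72, 0.77, 0.86, 0.82 and 1.05). Pmvk (-0.21) and Elovl5 (-0.40) also lost the call. These values thus rest on 1 KO array, and every KO difference is one across slides. Elovl5 lost the call in 9 of 10 fits that left out 1 array (adjusted p up to 0.172), keeping it without control replicate 3 alone. Leaving out KO replicate 1, 2 or 3 or control replicate 2 or 4 left 4 members called and leaving out control replicate 5 left 5. Dendritic cell markers were called lower in 3 of 9 at 24 h, with a summed Cy5 signal of 88640 to 331054 in control and 34551 to 54055 in KO arrays, and neutrophil markers in 3 of 6. Their part was not tested.

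**Figure D3:**
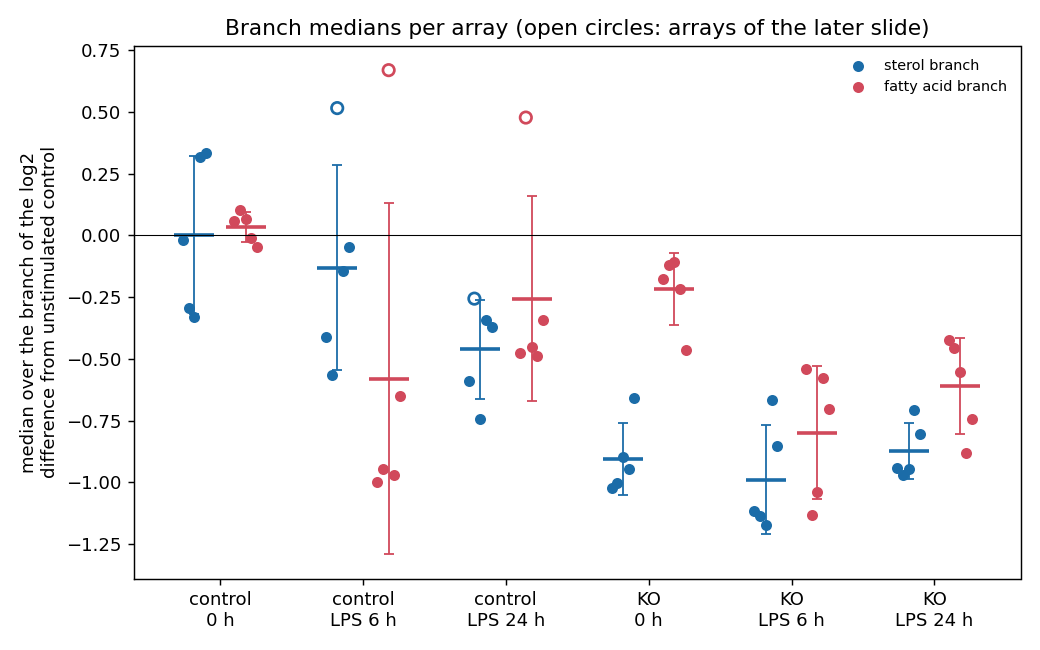
Median over the 16 sterol genes (blue) and over the 9 fatty acid genes (red) of each array's log2 difference from the mean of the unstimulated control arrays, with group means (lines) and SD (bars, n = 5); open circles are the 2 arrays of the later slide. Sterol medians of KO arrays run from -1.17 to -0.66 in all treatments, and the fatty acid medians of unstimulated KO arrays from -0.46 to -0.11. The fatty acid medians of LPS-treated KO arrays run from -1.13 to -0.42 and overlap the sterol range.

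The array medians show the branch contrast by genotype and time. The sterol median minus the fatty acid median of an array was -0.69 ± 0.28 (SD, n = 5) in unstimulated KO cells, with a range of -0.88 to -0.19, and -0.03 ± 0.38 in unstimulated control cells, with a range of -0.40 to 0.38. The ranges overlapped. It was 0.45 ± 0.37 in control and -0.19 ± 0.22 in KO cells at 6 h, and -0.20 ± 0.33 and -0.26 ± 0.31 at 24 h. The array of the later slide was the lowest of its control group at both times. It was at -0.15 at 6 h (others 0.38 to 0.83) and at -0.73 at 24 h (others -0.29 to 0.14). These values describe the chosen genes and were not tested.

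At 6 h of LPS the called genes were few and were shared by the branches. In control cells 4 members were called lower and 0 higher, against 4.49% lower and 7.15% higher of all genes: Dhcr7 (-1.70) and Mvd (-0.72) of the sterol branch, and Elovl5 (-0.94) and Fads1 (-0.64) of the fatty acid branch. The branch medians were -0.55 for fatty acid and -0.12 for sterol genes. Without the later slide 12 members were called lower and 0 higher (11.5% lower and 14.1% higher of all genes). They were 5 of 9 fatty acid genes, Scd2 (-2.82), Elovl5 (-1.30), Fasn (-1.20), Scd1 (-0.99) and Fads1 (-0.94), 6 of 16 sterol genes, led by Dhcr7 (-2.23), and Stard4 (-0.86). Of the markers 1 of 9 dendritic cell, 1 of 8 macrophage and 1 of 3 plasmacytoid cell markers were called higher and 1 macrophage marker lower, and their part was not tested. On the slide that held 2 arrays of each group all 4 members had the called direction, though these arrays were part of the fit that gave the calls. The branch medians on that slide were -0.98 for fatty acid and -0.93 for sterol genes.

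Scd2, a desaturase of stearoyl-CoA, and Fasn are described here as genes chosen after their values were seen. The Scd2 level was -1.73, -1.73, -1.55, -1.90 and -2.54 in unstimulated control arrays and -4.88, -5.13, 0.05, -4.38 and -4.44 at 6 h. Replicate 3, of the later slide, lay above all unstimulated arrays and the other 4 below them. In KO cells Scd2 went from -1.99, -1.20, -1.38, -1.41 and -2.63 to -3.58, -3.87, -4.05, -5.34 and -4.48, with no overlap (-2.54, SE 0.67, limma adjusted p = 0.00540). Fasn in control cells went from -1.97, -1.77, -1.83, -2.07 and -2.49 to -3.28, -3.23, 0.03, -3.14 and -3.24. Replicate 3 again stood above the others, and the difference was -0.55 (limma adjusted p = 0.631) with it and -1.20 (limma adjusted p = 0.0184) without the later slide.

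The count of members called in control cells at 6 h moved with single arrays. It was 11 without control LPS 6 h replicate 3, 1 without replicate 1 or 2 and 2 without replicate 4 of that group, and 2 without unstimulated replicate 1, 2 or 5. It was 0 with only the 10 arrays compared in the fit (limma, 7 lower and 1 higher of 31 at an unadjusted p under 0.05 in the fit of all arrays), and 1 with median centring. Elovl5 lost the call without replicate 1 or 2 of the LPS group (adjusted p up to 0.0600), whereas Dhcr7 kept it whichever array was left out.

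In KO cells at 6 h 5 members were called lower and 1 higher, against 12.4% lower and 14.2% higher of all genes. The lower ones were Dhcr7 (-2.67, SE 0.41, adjusted p = 2.05e-05), Scd2 (-2.54), Elovl5 (-1.41), Ebp (-0.77) and Fads1 (-0.60), and Insig2 was higher (0.39). The branch medians were -0.60 for fatty acid and -0.05 for sterol genes, so the fatty acid median was the lower in both genotypes. Leaving out the later slide, whose arrays are all of control cells, 9 members were lower and 2 higher (14.9% and 17.2% of all genes). Of the markers 4 of 9 dendritic cell and 2 of 3 plasmacytoid cell markers were called higher, and their part was not tested. Same-numbered arrays correlated at 0.109 to 0.657 in this comparison, though the labels do not say that they are paired. With the replicate block 8 members were called lower and 3 higher. With the slide as a block, where LPS replicate 1 alone gave the LPS estimate, Scd2, Ebp, Fads1 and Insig2 lost the call. With median centring, which moved the median of all genes from 0.03 to -0.10, 4 members were lower and 0 higher. On the slide that held 1 LPS and 3 unstimulated arrays all 6 had the called direction, but these arrays were also in the fit that gave the calls. The medians on that slide were -0.14 for fatty acid and -0.29 for sterol genes. Fads1 lost the call without LPS replicate 2 or 3 or unstimulated replicate 1, 2 or 4 (adjusted p up to 0.0800).

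**Figure D4:**
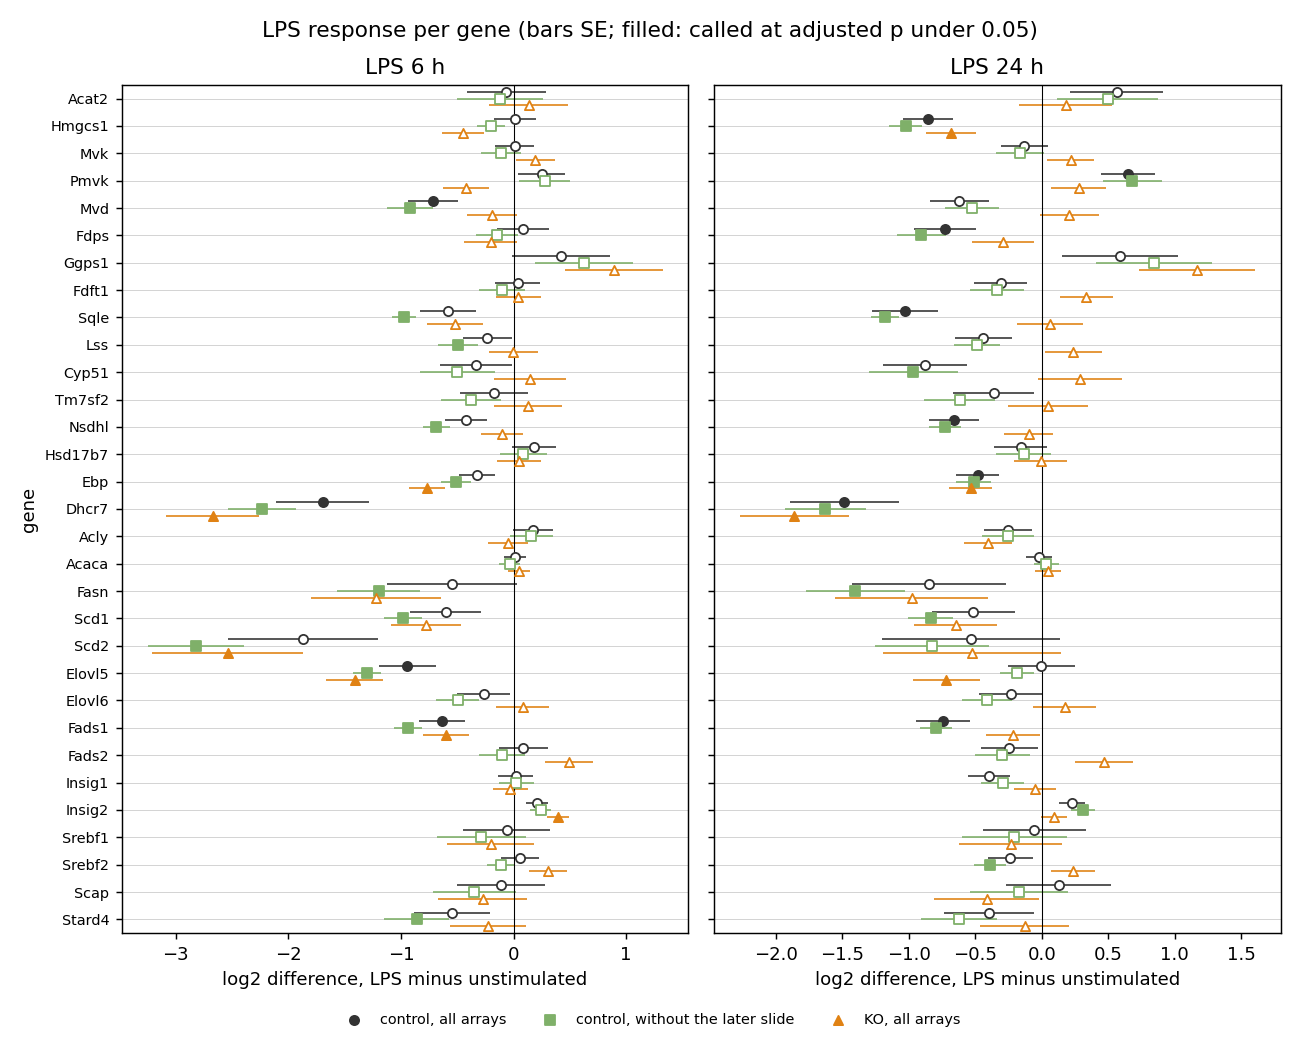
Log2 difference of each gene (points, bars of 1 SE) between LPS and unstimulated cells at 6 h (left) and 24 h (right), for control cells with all arrays (circles), control cells without the later slide (squares) and KO cells (triangles); filled points were called. At 6 h Dhcr7, Scd2, Elovl5 and Fads1 lie left of 0 in both genotypes, and for Fasn, Scd1 and Scd2 in control cells the square is filled and the circle open.

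With all arrays, the control cells at 24 h of LPS had more sterol than fatty acid genes called. Of 16 sterol genes 6 were called lower and 1 higher, and of 9 fatty acid genes 1 lower, against 5.07% lower and 7.23% higher of all genes. The lower sterol genes were Dhcr7 (-1.48), Sqle (-1.02), Hmgcs1 (-0.85), Fdps (-0.72), Nsdhl (-0.66) and Ebp (-0.48), and Pmvk was higher (0.65). The medians were -0.46 for sterol and -0.25 for fatty acid genes. Without the later slide they were -0.52 and -0.41, with 7 of 16 sterol and 3 of 9 fatty acid genes called lower. When the later slide was left out, 11 members were called lower and 2 higher (8.6% and 11.3% of all genes), with Cyp51 (-0.96), Fasn (-1.40), Scd1 (-0.83) and Srebf2 (-0.39) added to the lower ones and Insig2 (0.31) to the higher. Of 8 macrophage markers 3 were called lower and 1 higher, with a summed Cy5 signal of 36936 to 91841 unstimulated and 25251 to 60884 at 24 h, and their part was not tested.

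Among the members called at 24 h, Dhcr7 had the largest fall in either genotype. Its level was 0.90, 1.37, 1.20, 0.05 and -0.22 in unstimulated control arrays and -0.62, -0.26, -0.68, -1.30 and -1.26 at 24 h of LPS. In KO arrays it was 1.56, 1.43, 1.33, 1.45 and 1.17 unstimulated and 0.10, -0.34, -0.49, -0.99 and -0.64 at 24 h. Neither pair of groups overlapped, though the lowest unstimulated control array and the highest LPS control array nearly met. The difference was -1.48 (SE 0.41, limma adjusted p = 0.0171) in control cells and -1.86 (SE 0.41, limma adjusted p = 0.00190) in KO cells. A dimmer probe of Dhcr7 gave smaller differences, -0.72 and -0.90. The dimmer probe of Hmgcs1 gave -0.21 and -0.17, against -0.85 and -0.68, while that of Pmvk gave 0.59 in control cells, against 0.65.

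Fads1, which desaturates long fatty acids, was at -2.00, -2.01, -2.10, -2.30 and -2.14 in unstimulated control arrays and -2.87, -2.65, -2.64, -3.05 and -3.05 at 24 h. All LPS arrays were below all unstimulated ones (-0.74, SE 0.20, limma adjusted p = 0.0163). Pmvk rose from 0.12, -0.06, -0.02, 0.35 and 0.17 to the 24 h levels given above, without overlap (0.65, SE 0.21, limma adjusted p = 0.0360). Its KO difference over the same time was 0.28 and was not called.

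In KO cells at 24 h 4 members were called lower and 0 higher, against 7.85% lower and 10.3% higher of all genes: Dhcr7, Elovl5 (-0.72), Hmgcs1 (-0.68) and Ebp (-0.53). Elovl5 went from 0.56, 0.51, 0.62, 0.44 and 0.25 in unstimulated KO arrays to the 24 h levels given above, without overlap (SE 0.25, limma adjusted p = 0.0465), and lost the call in 9 of 10 fits that left out 1 array. The sterol median was 0.12 and the fatty acid median -0.40. With the later slide left out, 6 members were lower and 1 higher (10.8% and 13.3% of all genes). Of the markers 4 of 9 dendritic cell markers were called higher and 3 of 8 macrophage markers lower, and their part was not tested. With the slide as a block Ebp took the opposite sign (0.67), an estimate that rests on LPS replicate 5 alone. Median centring gave 1 member lower and 1 higher, and the count was 2 without LPS replicate 3 or unstimulated replicate 1.

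None of the 8 control calls at 24 h held under every alternative, since all were lost with median centring. The differences were then about as large or larger, with larger SEs: -1.03 for Hmgcs1, -1.21 for Sqle, -1.73 for Dhcr7, -0.86 for Fads1 and 0.63 for Pmvk. The count was 4 without LPS replicate 1 or unstimulated replicate 5, and 5 without LPS replicate 3 or 4 or unstimulated replicate 1. With the Agilent log ratios 7 members were lower and 0 higher, Pmvk and Fdps no longer being called, and with Cy5 alone 6 were lower and 0 higher. Hmgcs1, Sqle and Fads1 kept the call whichever array was left out, and Dhcr7 without any but unstimulated replicate 2 (adjusted p = 0.0518). No slide held both groups.

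Between 6 and 24 h few members were called with all arrays. In control cells 3 were called, against 3.29% higher and 2.18% lower of all genes: Elovl5 rose (0.94) and Hmgcs1 (-0.87) and Fdps (-0.81) fell. The count was 1 without control LPS 6 h replicate 5, and 0 with median centring. Scd2 differed by 1.34 with all arrays (not called) and by 2.00 without the later slide (called). In KO cells Pmvk rose (0.70), against 3.53% higher and 4.2% lower of all genes. Same-numbered arrays correlated at 0.792 to 0.875 in this comparison, and with the replicate block 3 members were higher and 2 lower. With the later slide left out, 5 were higher, Scd2 (2.02), Elovl5 (0.70), Pmvk (0.70), Sqle (0.58) and Fads1 (0.38), and Insig2 lower (-0.30), against 6.16% and 7.03% of all genes. The single call was lost without KO LPS 6 h replicate 1, 2 or 3 or KO LPS 24 h replicate 4 or 5, and without KO LPS 24 h replicate 5 the count was 2, of other members.

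**Figure D5:**
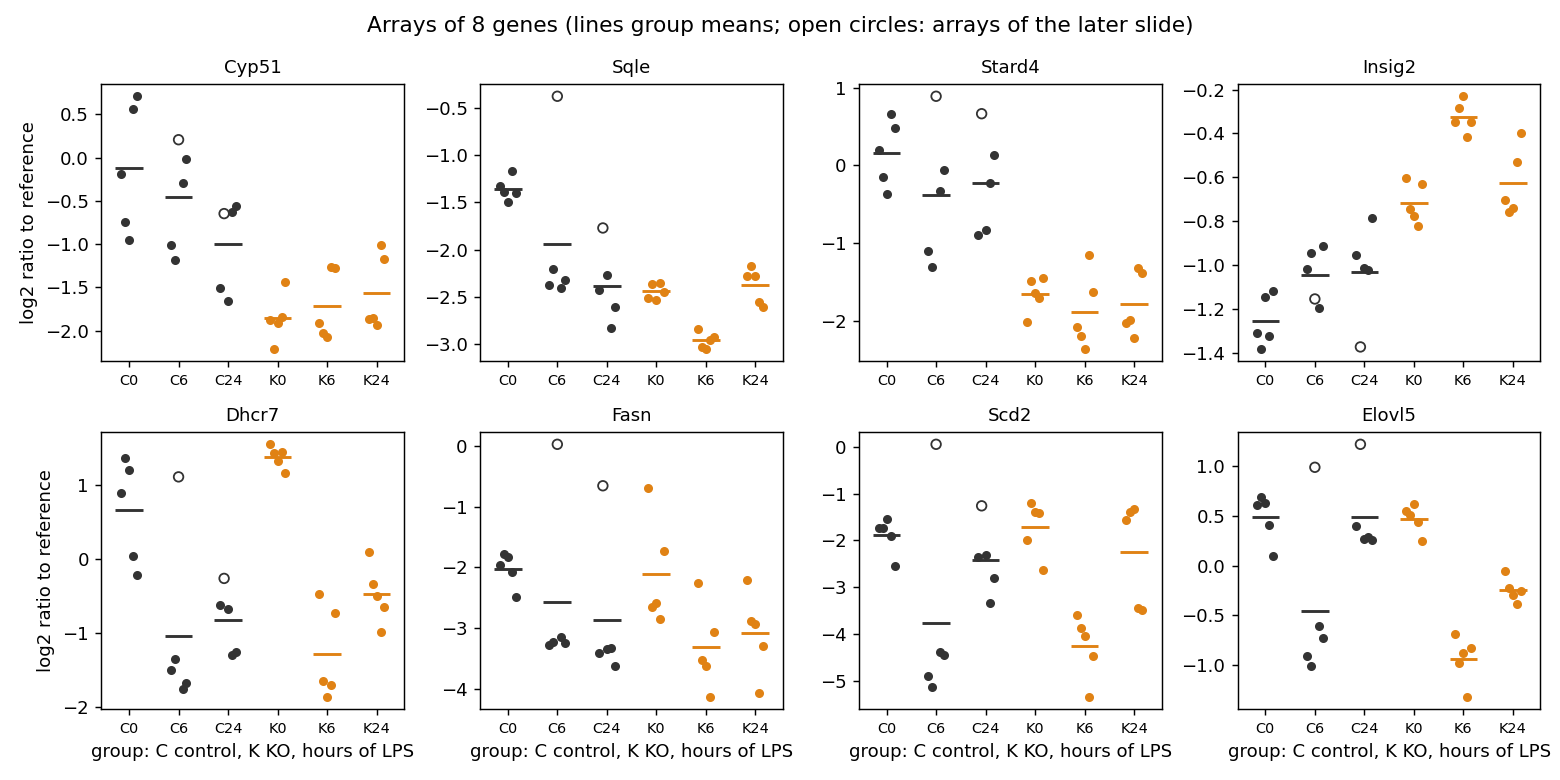
Log2 ratio to the reference of each array for 8 genes (points), with group means (lines), in control (C, dark) and KO (K, orange) cells at 0, 6 and 24 h of LPS; open circles are the 2 arrays of the later slide and the y axes differ between panels. Cyp51 and Stard4 sit lower in KO groups, Insig2 sits higher, and the Fasn, Scd2 and Elovl5 points of LPS-treated control cells lie below the open circles.

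The LPS response did not differ detectably between the genotypes for any of the 31 members in limma with all arrays. The difference of responses was called for 0 members at 6 h (1 at an unadjusted p under 0.05, lower in KO) and 0 at 24 h (7 at an unadjusted p under 0.05, all higher in KO). Of all genes 0.293% were called higher and 0.142% lower at 6 h, and 0.426% higher and 0.453% lower at 24 h. The largest at 24 h were Cyp51 (1.16) and Sqle (1.09, SE 0.35, adjusted p = 0.158). When the later slide was left out, 3 members were called at 24 h (0.941% of all genes higher), Sqle (1.24), Nsdhl (0.63) and Srebf2 (0.62), all with a more positive response in KO cells.

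Sqle, named here after its values were seen, shows the pattern behind this value. Its level was -1.33, -1.39, -1.50, -1.16 and -1.40 in unstimulated control arrays and -2.42, -1.77, -2.27, -2.82 and -2.61 at 24 h of LPS. In KO arrays it was -2.51, -2.36, -2.53, -2.35 and -2.45 unstimulated and -2.28, -2.17, -2.28, -2.56 and -2.61 at 24 h. The control groups did not overlap, the KO groups did, and the control and KO levels overlapped at 24 h (means of -2.38 in both).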

How the data were processed

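The arrays carried Cy5-labelled sample and Cy3-labelled reference RNA. The deposited scanner files hold spot intensity values and log10 ratios which the file headers credit to Agilent Feature Extraction 10.7.3.1. The deposited value table holds log2 ratios by the authors, who used limma per the submitters' processing notes (version not given in the sources used here), and each of its columns correlated with the array recomputed here at 0.999885 or more, with column medians of 0.00584 to 0.0183, so it is sample over reference, centred near 0.

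Intensities were background-corrected (normexp, offset 50) and loess-normalized within arrays in limma 3.58.1 (R 4.3.3). The 1639 control spots were left out, flagged spots were set to missing, and spots of a probe were averaged. Of 41174 probes 22951 were named by transcript accession through the RefSeq table (GRCm38.p6). A probe was kept where some group had it above background, by the scanner's Cy5 flag, on each of its 5 arrays, and each gene took its brightest probe. One model of 30 arrays with a mean per group (24 residual degrees of freedom) gave 11 comparisons, with Benjamini-Hochberg adjustment over 11262 genes. The number of arrays limits the precision.

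The members and lists were chosen with earlier results of these data known. Values of every array are given, by rule, for the called member with the largest rise and the one with the largest fall of each set, in KO against control unstimulated and at 24 h and in the 24 h response of each genotype. Fasn, Scd2 and Sqle were added after their values were seen. Values of some other pathway genes are not reported here. Correlations of deviations from group means exceeded 0.1 for every same-numbered pair in 3 comparisons: control at 24 h against unstimulated (0.177 to 0.731), KO at 6 h against unstimulated (0.109 to 0.657) and KO at 24 h against 6 h (0.792 to 0.875). No 2 replicates were alike enough to be 1 sample. On simulated data 200 of 11262 genes were changed between unstimulated KO and control arrays. Of log2 changes of 1, 70% were recovered, and of changes of 2, 95%. The simulated noise was independent between arrays, without the slides or replicate numbers of the real ones, so these rates may not hold for them. Alternatives were Agilent log ratios, median centring, the deposited table, no filter on dim probes, the mean of probes, Cy5 alone, the slide or the replicate number as a block, only the arrays compared, and leaving out the later slide or each array.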

Additional observations from a re-analysis of the deposited data

Results flagged for a closer look

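Of 186 groups of 5 arrays (31 genes in 6 groups), 17 had 1 array whose gap to the nearest other exceeded Dixon's critical value, and chance gives about 1 in 20. The control LPS 6 h replicate 3 array, of the later slide, held 9 of them. Its log2 ratios to the reference, with the range of the other 4 arrays, were 0.53 for Fdps (-0.75 to -0.43), -0.38 for Sqle (-2.40 to -2.21), 0.74 for Lss (-0.71 to -0.47) and 0.72 for Nsdhl (-0.76 to -0.47). They were 1.11 for Dhcr7 (-1.76 to -1.36), 0.028 for Fasn (-3.28 to -3.14), 1.05 for Scd1 (-0.91 to -0.79), 0.050 for Scd2 (-5.13 to -4.38) and 0.99 for Elovl5 (-1.01 to -0.61).

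The control LPS 24 h replicate 2 array, on the same slide, held 6. Its ratios were -0.92 for Hmgcs1 (-1.92 to -1.64), -0.48 for Fdps (-1.49 to -1.24), -0.66 for Fasn (-3.62 to -3.33), 0.89 for Scd1 (-0.83 to -0.52), 1.22 for Elovl5 (0.26 to 0.40) and -0.20 for Scap (-1.89 to -1.44). All 15 lay above their group. The remaining arrays were KO LPS 6 h replicate 4 for Hsd17b7, at -1.10 (-1.64 to -1.54), and unstimulated KO replicate 5 for Srebf1, at -1.43 (-0.96 to -0.78).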

How the results depend on the processing

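Of the counts of members called, the branch medians and their differences, 414 values under alternatives stayed close to the reported ones. Another 35 were weaker, 23 stronger and 8 moved. With the authors' deposited table every reported call was kept, but its columns nearly equal the values used here (correlations of 0.999885 or more), so it is no separate check. With the slide as a block, which rests on a chain of slides, the sterol minus fatty acid median was -1.53 in unstimulated, -1.35 in 6 h and 0.57 in 24 h KO against control cells (-0.69, -0.51 and -0.16 in the reported fit). It was 0.050 (0.43) for control cells at 6 h, -0.16 (0.55) for KO at 6 h, 2.35 (0.53) for KO at 24 h, 1.78 (0.06) for KO at 24 h against 6 h, and 2.46 (0.41) for the difference of 24 h responses. Calls under this block numbered 16 at 24 h KO against control, 21 and 18 for control at 6 and 24 h, 2 and 19 for KO at 6 and 24 h, 8 and 20 for 24 h against 6 h in control and KO, and 20 for the difference at 24 h. Signs turned for Acat2 (1.72), Mvk (0.77), Tm7sf2 (0.86), Hsd17b7 (0.82) and Stard4 (1.05) in KO against control at 24 h and for Ebp (0.67) in KO cells at 24 h. The cause was not tested.

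Median centring left 4 calls in KO against control at 24 h, 1 and 0 in control at 6 and 24 h, 2 in KO at 24 h, and 0 and 0 for 24 h against 6 h in control and KO. Cy5 alone left 1 for control at 24 h against 6 h. Without the later slide there were 12 and 13 in control at 6 and 24 h, 11 and 7 in KO, 6 for KO at 24 h against 6 h and 3 for the difference at 24 h. With only the arrays compared, and so fewer samples for the spread, the KO comparisons had 9 calls at 6 h and 5 at 24 h, with 0 in control at 6 h, 10 in KO at 6 h, 0 and 3 for 24 h against 6 h in control and KO, and 1 for the difference at 24 h.

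With the replicate block there were 11 calls in KO at 6 h, 7 in KO at 24 h, 5 and 5 for 24 h against 6 h in control and KO and 1 for the difference at 24 h; it ended no call reported. Same-numbered arrays also correlated outside the 3 comparisons in which every pair exceeded 0.1. Of all 75 same-number correlations 60 exceeded 0.1, with a median of 0.555, against -0.167 for arrays of other numbers. What the numbers share was not tested, and the reported fit holds no term for them. Leaving out each array gave 12 to 16 calls in unstimulated, 13 to 16 in 6 h and 4 to 8 in 24 h KO against control cells, 1 to 11 and 4 to 10 in control at 6 and 24 h, 5 to 7 and 2 to 4 in KO, 1 to 3 and 0 to 2 for 24 h against 6 h in control and KO, and 0 for both differences. Acaca was not above background on some arrays of 3 groups, which limits its differences. Other members were dim too, such as Acat2 and Elovl6 (mean log2 Cy5 of 7.15 and 7.25, against 6.80 for Acaca).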
